A study of Caenorhabditis elegans with 2 samples.

Results

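The cyclin-dependent kinase (CDK) genes of the nematode Caenorhabditis elegans are described here by the binding of DPL-1 in their promoters. The members are 10 listed genes of 19973 protein-coding genes on the nuclear chromosomes, namely cdk-1, cdk-2, cdk-4, cdk-5, cdk-7, cdk-8, cdk-9, cdk-11.1, cdk-11.2 and cdk-12, and all 10 were found in the annotation. Each gene was given the DPL-1 summits, the highest points of peaks, placed up to 1000 bp before or 200 bp after one of its transcript starts, and this stretch is called its window; distances before a start are written as negative. The list was drawn up with DPL-1 signals of these data known, so the signals are given as a description and none of them was tested.

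The assay was chromatin immunoprecipitation with sequencing on whole mixed sex L4 larvae of strain OP105, in 1 group with 2 biological replicates and no second condition. The strain is described as unc119(ed3) with the insertion wgIs105, which carries dpl-1 fused to TY1, EGFP and FLAG tags together with unc119. The binding is that of a tagged transgene product, and since whole animals were used the cells that gave a peak are unknown. The deposited ce11 lists hold 30000 relaxed peaks for each replicate and for the pooled replicates, and 3369 peaks past an irreproducible discovery rate (IDR) threshold, which are the pooled peaks with the highest signal. No read counts are in these lists, so depth is unknown. Signal is the authors' own value for each peak against a control alignment, with a scale that is not stated, and values are compared among peaks of 1 list or at 1 summit across the replicates.

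CDKs are protein kinases that work with a partner, usually a cyclin, and fall into those that drive the cell cycle and those that act on RNA polymerase II and RNA processing. DPL-1 is the worm DP protein, through which E2F factors bind DNA, and is part of the DRM complex, which represses cell cycle genes together with LIN-35, the worm retinoblastoma-family protein. The CDK4 kinase with cyclin D is known to act on LIN-35, and cell cycle genes are the best known targets of E2F. L4 larvae hold dividing germ cells and somatic cells that are near the end of their divisions.

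Of the 10 CDK genes, 9 had an IDR summit in the window, and cdk-11.1 was the exception. Of all 19973 protein-coding genes, 3266 (16.4%) had one. Since the list was chosen with these signals known, the counts are set side by side and nothing further is read from them. The 9 peaks were of ordinary height: their median signal was 129, with a range from 72.3 at cdk-4 to 353 at cdk-5, against a median of 141 (quartiles 79.9 and 296) for the strongest summit of all 3266 genes with one. Both the cell cycle kinases (3 of 3) and the transcription kinases (5 of 6) were among the 9. In the pooled relaxed list all 10 genes had a summit, against 44.0% of all genes. Replicate 1 had a summit at 9 of the 10, against 43.9%, replicate 2 at all 10, against 44.0%, and both replicates at 9, against 31.4%.

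The count of CDK genes and the share of all genes were also taken with other windows and peaks. With the window cut to 500 bp before a start, 9 CDK genes had an IDR summit, against 13.5% of all genes, and with 200 bp before and 100 bp after a start 7 did, against 7.61%, without cdk-4 and cdk-12. Among the strongest 1000 IDR peaks 3 CDK genes had one, namely cdk-1, cdk-5 and cdk-7, against 7.05%. With as many of the strongest peaks as the IDR list holds, replicate 1 alone gave 9 genes, against 15.8%, and replicate 2 alone gave 10, against 16.1%.

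**Figure D1:**
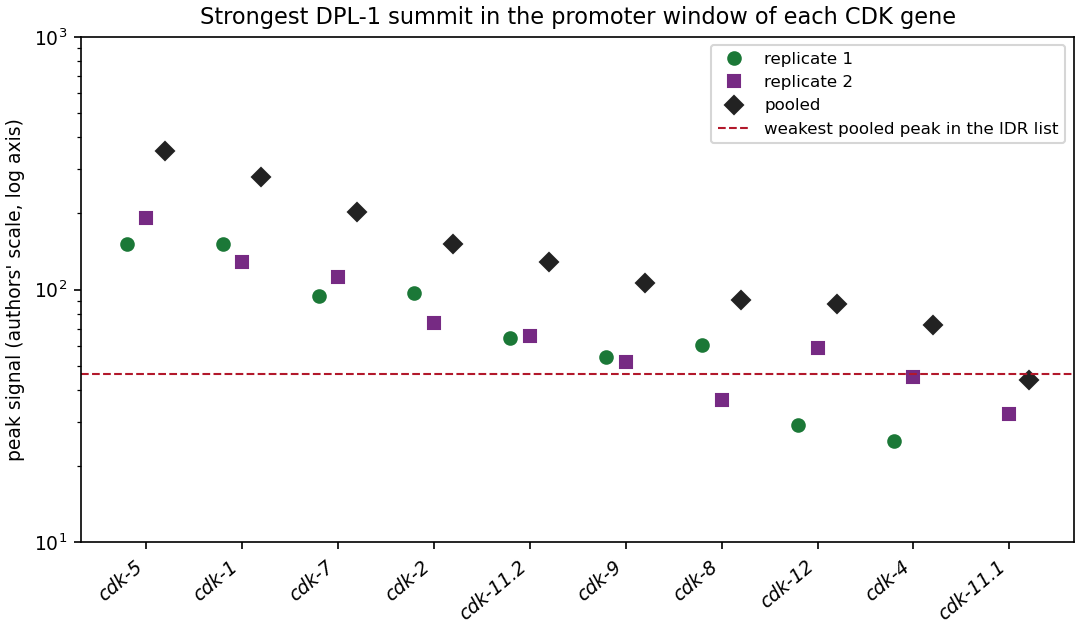
Signal of the strongest summit in the window of each CDK gene in the relaxed lists of replicate 1, replicate 2 and the pooled replicates, on a log axis; the dashed line is the weakest pooled peak of the IDR list (46.4). The pooled signal falls from 353 at cdk-5 to 43.7 at cdk-11.1, which lies under the line and has no point for replicate 1.

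To show what lies at the summits, the bases around them are printed 5′ to 3′ for the 4 CDK genes with an IDR summit on chromosome III or on X outside the cdk-11 pair, read from the WBcel235 genome in the direction of the gene, up to 100 bp either side and without annotated exons. Capitals mark the word GAGAG and the cell cycle homology region (CHR) words TTTGAA and TTCGAA, on either strand, and are counted later. All 4 stretches hold GAGAG, so they do not stand for the family. It was found at 6 of the 9 genes with an IDR summit and in 54.1% of all IDR windows. The genes with an IDR summit but no GAGAG, and the single gene with an E2F word, are not among those printed. The stretches are chrIII:9747274-9747471 on the + strand for cdk-1, chrIII:13466343-13466535 on the - strand for cdk-5, chrIII:4332626-4332826 on the + strand for cdk-12 and chrX:13519173-13519373 on the - strand for cdk-4.
cdk-1: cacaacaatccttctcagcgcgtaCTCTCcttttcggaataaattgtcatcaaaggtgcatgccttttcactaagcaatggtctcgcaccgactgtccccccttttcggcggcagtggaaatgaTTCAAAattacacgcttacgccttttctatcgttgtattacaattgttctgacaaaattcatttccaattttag
cdk-5: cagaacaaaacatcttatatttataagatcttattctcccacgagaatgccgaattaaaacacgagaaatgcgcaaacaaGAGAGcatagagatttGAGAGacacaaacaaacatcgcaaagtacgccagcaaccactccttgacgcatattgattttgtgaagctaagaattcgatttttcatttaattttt
cdk-12: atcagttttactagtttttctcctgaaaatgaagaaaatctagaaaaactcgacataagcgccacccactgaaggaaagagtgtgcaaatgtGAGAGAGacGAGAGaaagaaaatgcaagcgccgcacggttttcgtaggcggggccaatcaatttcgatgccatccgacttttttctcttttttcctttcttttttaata
cdk-4: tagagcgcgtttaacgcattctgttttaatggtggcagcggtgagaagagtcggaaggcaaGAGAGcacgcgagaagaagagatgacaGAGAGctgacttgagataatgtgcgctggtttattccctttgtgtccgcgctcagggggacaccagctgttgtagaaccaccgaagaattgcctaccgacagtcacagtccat

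Among the cell cycle kinases the mitotic gene cdk-1 had the strongest peak, the S phase gene cdk-2 came next and the G1 gene cdk-4 had the weakest. The gene cdk-1 encodes the kinase that drives entry into mitosis (WBGene00000405, chrIII:9747472-9748852, + strand). Its summit at III:9747374, at -98 bp from the start, had a signal of 151 in replicate 1 and 129 in replicate 2, and 278 after pooling, where it ranked 625. The replicates lay close together, replicate 1 being the higher one. The base at the summit is intergenic, between cdk-1 and iff-1, which encodes a homolog of the translation factor eIF5A, starts 279 bp away on the other strand and has the summit in its window too, at -181 bp. A peak in such a divergent promoter cannot be given to either gene alone.

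The gene cdk-2 encodes the kinase that acts with cyclin E at the start of S phase (WBGene00019362, chromosome I, + strand). Its signal was 97.1 in replicate 1 and 73.7 in replicate 2, and 152 after pooling, rank 1113, with the summit at I:3409905, -108 bp from its outermost start. No other gene had this summit in its window. The gene has a second transcript start at I:3413012. Before it the pooled list held weaker summits of 36.3 (rank 4297) at -541 bp and of 10.7 at -329 bp, below the weakest IDR peak of 46.4. Replicate 1 had a summit of 23.5 at -363 bp from the second start and replicate 2 one of 23.5 at -557 bp, so the weak summits of the replicates did not fall at the same place. Replicate 2 also had a weak summit of 15.4 at -474 bp from the first start. The strong summit lay at the first start, and weak ones lay before both.

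The gene cdk-4, on the X chromosome, encodes the kinase that acts with cyclin D to move cells through G1 (WBGene00000406, chrX:13515856-13518911, - strand). The replicates gave 25.18 in replicate 1 and 44.9 in replicate 2, and 72.3 after pooling, rank 2240. This was the weakest of the 9 IDR peaks, and so the member nearest to the threshold from inside, though well above the 46.4 at which the list ends, and replicate 2 was the higher one, at 1.78 times replicate 1. Replicate 1 listed a second, nearly equal summit of 20.5 at -499 bp, while replicate 2 had a single one at -364 bp. The IDR summit at -362 bp was the farthest from a start among the members and also lay in the window of F18H3.1, at -390 bp from that gene, which is transcribed the other way. Of all X-linked protein-coding genes 9.19% had an IDR summit, with a median signal of 86.2 for the strongest, and on the autosomes these were 17.5% and 150. The other X-linked member, cdk-11.2, stood at 129, so cdk-4 lay below and cdk-11.2 above the X median.

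The highest signal of the family was at cdk-5, which encodes a kinase known for its work in neurons and is activated by a p35-type protein in place of a cyclin (WBGene00000407, chrIII:13464687-13466342, - strand). The peak measured 151 in replicate 1 and 192 in replicate 2, and 353 after pooling, rank 478, with the summit at III:13466435, at -93 bp. In replicate 1 cdk-5 and cdk-1 were next to equal, at ranks 568 and 570, and replicate 2 separated them. The peak was higher than those of 79.2% of the 3266 genes with an IDR summit. The kelch-family gene kel-3 overlaps cdk-5 on the other strand: the summit lies in an intron of kel-3 and at -143 bp from one of its starts, which is 236 bp from the cdk-5 start and faces away from it. By the sum over both replicates of the difference in log10 signal, the genes most like cdk-5 of 3093 candidates with another summit were jmjd-4 and mev-1, which encodes a subunit of succinate dehydrogenase. They share 1 summit at III:10334133, with 151 in replicate 1 and 185 in replicate 2 (sum of differences 0.017).

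A second IDR peak lay inside cdk-5, and it was the single one in the body of any member outside the windows. No such count was made for all genes. Its summit at III:13465235 had a pooled signal of 50.03 (rank 3132) and lay 1107 bp downstream of the start, in introns of both cdk-5 and kel-3. The relaxed lists had summits of 33.2 in replicate 1 and 22.9 in replicate 2 there, at 1016 and 1153 bp. A far stronger IDR peak of 1073 lay beyond the end of cdk-5, at III:13463103, in the windows of ant-1.1, T27E9.2 and abcf-2.

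Of the 6 transcription kinase genes 5 had an IDR summit, with a median signal of 106 and a median distance of -148 bp, and cdk-7 had the highest. The gene cdk-7 encodes the CDK-activating kinase, which is also part of the transcription factor TFIIH (WBGene00000408, chromosome I, - strand). Its signal was 94.5 in replicate 1 and 112 in replicate 2, and 203 after pooling, rank 848, and its summit lay at -17 bp from its nearest start, in no other gene's window. The replicates differed little at cdk-7 (103 ± 12.5, SD, n = 2), and their ranges overlapped neither that of cdk-1 above nor that of cdk-11.2 below, but did overlap that of cdk-2.

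The gene cdk-9 encodes the kinase of P-TEFb, which releases paused RNA polymerase II (WBGene00000410, chromosome I, + strand). Here the signal was 54.0 in replicate 1 and 51.9 in replicate 2, and 106 after pooling, rank 1570, with the summit at -148 bp. The same summit lay at -269 bp from the hexokinase gene hxk-2, which starts 417 bp away on the other strand. At cdk-9 the replicates were nearly equal (52.9 ± 1.54, SD, n = 2).

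The gene cdk-8 encodes the kinase of the Mediator complex (WBGene00000409, chromosome I, + strand). Its peak had 60.4 in replicate 1 and 36.4 in replicate 2, and 90.7 after pooling, rank 1842. Its IDR summit at -14 bp was the closest to a start among those of the members. In replicates 1 and 2 it lay at -43 and -52 bp, farther than that of cdk-7 at -2 and -17 bp. At cdk-8 replicate 1 was the higher one, and the ratio of replicate 2 to replicate 1 of 0.601 was the lowest among the members. The summit also lay in the window of tlf-1, which encodes a TBP-like factor of transcription initiation, at -479 bp. A second and weak summit was seen in each relaxed list, with 7.51 in replicate 1 at -786 bp, 5.79 in replicate 2 at -757 bp and 12.1 after pooling.

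The gene cdk-12 encodes a kinase of the RNA polymerase II tail that acts with cyclin K (WBGene00007135, chrIII:4332992-4341984, + strand). The signal stood at 29.0 in replicate 1 and 58.6 in replicate 2, and 87.9 after pooling, rank 1895. Replicate 2 was 2.02 times replicate 1, the highest ratio among the members, and the summit of replicate 1 lay 93 bp upstream of the IDR summit, where that of replicate 2 lay 5 bp from it. Replicate 1 also listed a weak summit of 7.08 at -145 bp. The IDR summit was at -266 bp from the first of 6 starts and in no other gene's window.

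The paralogs cdk-11.1 and cdk-11.2 encode kinases that act with cyclin L and are known for a role in RNA processing, and their peaks stood on either side of the IDR threshold. The X-linked gene cdk-11.2 (WBGene00013917, chrX:10416631-10419765, - strand) had a signal of 64.5 in replicate 1 and 65.3 in replicate 2, and 129 after pooling, rank 1304, with the summit at -164 bp. At cdk-11.1 (WBGene00015203, chrII:7699235-7702012, + strand) replicate 1 listed no summit in the window, replicate 2 had one of 32.2 and the pooled list one of 43.7 at -17 bp. This is the member outside the threshold: its pooled rank was 3580, the IDR list ends at 3369 with a signal of 46.4, and the -log10 q was the same 3.95 as at every IDR peak. The nearest summit of replicate 1 lay 2242 bp downstream of a start, in coding sequence, with a signal of 9.14. Of the replicates, replicate 2 alone listed the peak at cdk-11.1, at rank 2767. Its pooled summit also lay in the windows of moa-2, at -185 bp, and B0495.5, at -712 bp.

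The windows around the summits of the cdk-11 pair share a run of 18 bases in the same direction, found after the sequences had been seen. The stretches are chrII:7699118-7699234 on the + strand and chrX:10419829-10420029 on the - strand, chosen in the same way, with the shared run in capitals.
cdk-11.1: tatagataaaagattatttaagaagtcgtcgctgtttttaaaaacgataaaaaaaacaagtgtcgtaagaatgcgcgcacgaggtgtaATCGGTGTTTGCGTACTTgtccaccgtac
cdk-11.2: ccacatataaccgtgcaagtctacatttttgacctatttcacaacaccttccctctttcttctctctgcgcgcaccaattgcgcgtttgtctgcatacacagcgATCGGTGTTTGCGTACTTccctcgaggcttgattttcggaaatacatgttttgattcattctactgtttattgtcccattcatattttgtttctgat
The run lies from 12 bp before to 5 bp after the pooled summit of cdk-11.1 and from 4 to 21 bp after the IDR summit of cdk-11.2. The other 44 pairs of CDK genes shared runs of at most 11 bases, with a median of 8 over all 45 pairs. Beside the run, 2 of 10 bases matched just before it and 2 of 10 just after, and over 30 bases these were 9 and 13. The run is not peculiar to these genes, since it occurs at 23 places in the nuclear genome, 14 of which are on chromosome III, and of 3369 windows of the same length around IDR summits 1 held it, the one of cdk-11.2.

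**Figure D2:**
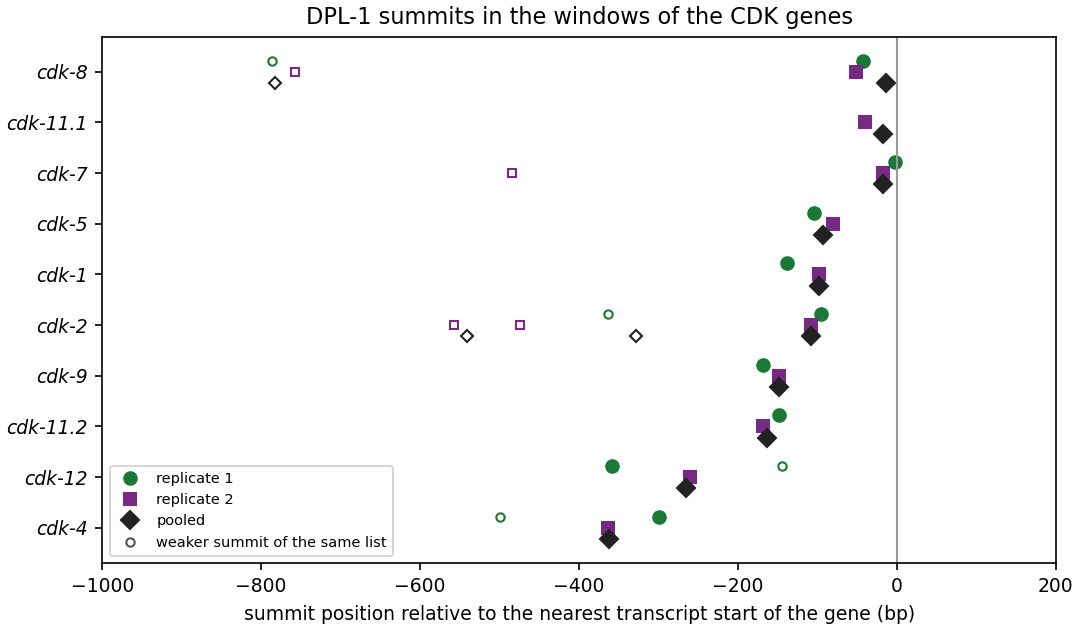
Position of every summit in the windows of the CDK genes relative to the nearest transcript start of the gene, in bp, for replicate 1, replicate 2 and the pooled replicates; filled symbols are the strongest summit of a list and open symbols weaker ones. Most strongest summits lie within 200 bp upstream of a start, with cdk-12 (-266) and cdk-4 (-362) farther away.

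All 9 IDR summits lay upstream of the nearest start of the gene, from -362 to -14 bp with a median of -108 bp. For all 3266 genes with an IDR summit the median was -217 bp (quartiles -392 and -122). In each of the 9 cases the CDK start was also the nearest protein-coding start to the summit. This share was not taken for all 3266 genes, so how usual it is remains unknown. The summit lay in the window of another protein-coding gene at 5 of the 9 genes, and for all 3266 genes this was the case at 56.0%. In each of these 5 the neighbour runs the other way. The genes with a summit of their own were cdk-2, cdk-7, cdk-11.2 and cdk-12.

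The order of the pooled signals was cdk-5, cdk-1, cdk-7, cdk-2, cdk-11.2, cdk-9, cdk-8, cdk-12, cdk-4 and cdk-11.1. The gene cdk-5 was above cdk-1 in both replicates, but in replicate 1 by no more than 150.8 against 150.7. The replicate ranges of cdk-7 and cdk-2 overlapped, those of cdk-9, cdk-8 and cdk-12 overlapped one another, and so did those of cdk-8, cdk-12 and cdk-4. With 2 values per gene, overlapping ranges do not decide whether such neighbours differ, and cdk-11.1 has 1 replicate value. Taken by replicate, cdk-2 was above cdk-7 in replicate 1 (97.1 against 94.5) and below it in replicate 2 (73.7 against 112). Likewise cdk-8 was above cdk-9 in replicate 1 only, and cdk-12 was above cdk-8 in replicate 2 only. The gene cdk-12 was above cdk-4 in both replicates. Between cdk-1 and cdk-7, between cdk-2 and cdk-11.2, and between cdk-11.2 and cdk-9 the ranges did not overlap. The ratio of replicate 2 to replicate 1 ran from 0.601 to 2.02 over the 9 genes, and at 3076 IDR peaks with a relaxed summit of both replicates within 100 bp its median was 1.14, with 90% of values between 0.476 and 2.61. None of the 9 genes lay outside that span.

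**Figure D3:**
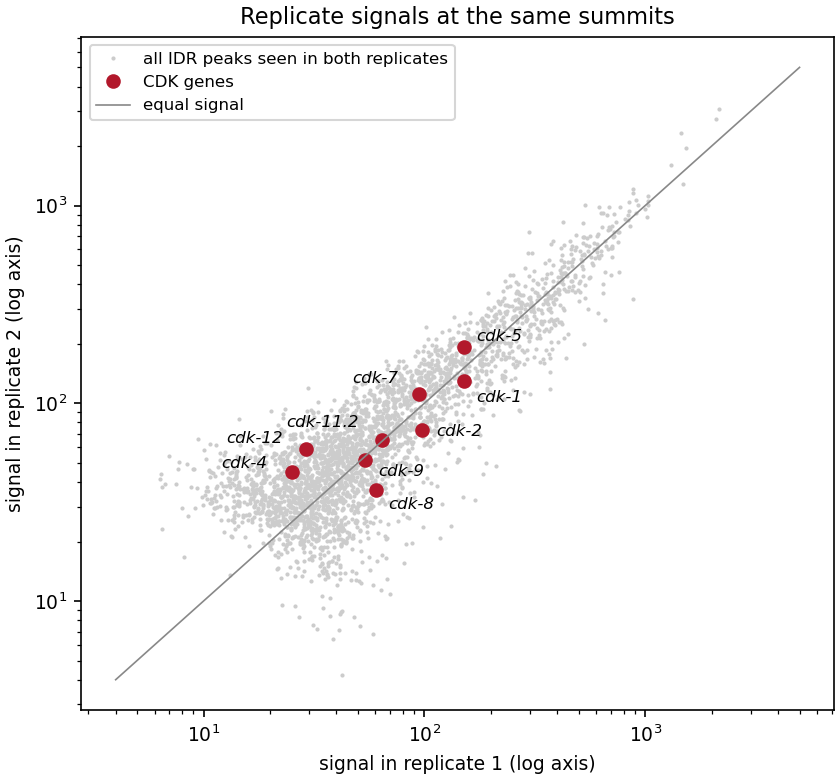
Signal in replicate 2 against signal in replicate 1, both on log axes, at 3076 IDR peaks with a summit of both replicates within 100 bp (grey) and at the 9 CDK genes with an IDR summit (red); the line marks equal signal. The CDK genes lie within the cloud, with cdk-12 and cdk-4 above the line and cdk-8 below it.

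Inside the gene bodies and outside the windows the lists held weak summits. The pooled list had 21 of them in 8 genes, with signals from 9.45 to the 50.03 of the cdk-5 peak, while cdk-8 and cdk-11.2 had none in any list. Summits in gene bodies were not counted over all protein-coding genes, so how usual these numbers are is unknown. The genes cdk-12, with 6 of the 21, and cdk-9, with 4, held the most. They are among the longest members, at 8993 and 9628 bp, after cdk-7 at 9703 bp. The numbers did not follow length throughout, and a link to length was not tested. In the pooled list cdk-7 held summits of 27.0 and 14.3, fewer than the 19.9, 50.03 and 10.1 in cdk-5, of 1656 bp. Some of the 21 also lay in windows of other genes, such as T05G5.4 and kel-3. Apart from the peak in cdk-5 all of the 21 were below the weakest IDR peak. The number listed depends on the fixed length of the relaxed lists.

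Short words were searched within 100 bp of the summits, on both strands. For E2F these were TTTCCCGC, TTTGGCGC, TTTCGCGC and TTTGCCGC, for the CHR element, which LIN-54 of the DRM complex binds, TTTGAA and TTCGAA, and besides these GAGAG, which is assigned here to no factor. Of the 9 CDK genes with an IDR summit, cdk-2 had an E2F word, TTTCCCGC at 25 bp downstream of the summit, and 9.94% of all 3369 IDR windows had one. A CHR word was found at 4 of the 9, namely cdk-1, cdk-2, cdk-7 and cdk-9, and in 48.8% of all windows. GAGAG was found at 6 of the 9, namely cdk-1, cdk-4, cdk-5, cdk-7, cdk-11.2 and cdk-12, and in 54.1% of all windows. All GAGAG words of cdk-5, cdk-7 and cdk-12 and 1 of 2 at cdk-4 lay within 18 bp of the summit. Those at cdk-1 (-74 bp) and cdk-11.2 (-37 bp) and the other at cdk-4 (-37 bp) lay farther away. The 18 bp was read from these matches, and no share of all IDR windows was taken at that distance. Within 50 bp, GAGAG was found at 5 of the 9 genes and in 1346 of all 3369 IDR windows. At cdk-12 there were 3 such words, of which 2 overlap. No word of one set overlapped one of another at these genes, and cdk-8 had none of the 3 kinds. The G and C content of the windows ran from 31.3% at cdk-11.1 to 51.2% at cdk-4, with a median of 41.3% for the 10 genes and of 41.3% for all IDR windows.

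The genes of cyclins and activators that work with the CDKs were a mixed set, of which 9 of 17 had an IDR summit in the window, set beside 16.4% of all genes, with a median signal of 146. For cdk-1, the cyclin B gene cyb-1 had the strongest peak of the cyclins, with 434 in replicate 1 and 456 in replicate 2, and 871 after pooling. Its summit lay at -494 bp from cyb-1 and at -134 bp from orc-5, which encodes a subunit of the origin recognition complex. The cyclin B3 gene cyb-3 stood at 146, and cya-1, cyb-2.1 and cyb-2.2 had no summit in any list. The genes cyb-2.1 and cyb-2.2 are close paralogs, and how the authors treated reads that map to both is not stated.

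The cyclin genes of the G1 and S phase kinases had unlike values. The cyclin E gene cye-1, the partner of cdk-2, had 217 in replicate 1 and 245 in replicate 2, and 464 after pooling, at -541 bp and also at -107 bp from pqn-21. The cyclin D gene cyd-1, the partner of cdk-4, had no IDR summit. Its pooled relaxed summits were 18.7 at -279 bp and 16.0 at -57 bp. Replicate 1 had 7.01 at -326 bp and replicate 2 had 13.7 at -178 bp, so these weak summits did not fall at the same place. Both the kinase and the cyclin of the G1 pair thus had low values, while those of the S phase pair were higher, which is a description of 4 genes and was not tested. The activator gene cdka-1, the partner of cdk-5, had 17.9 in the pooled list and no summit in replicate 1, far below the 353 of cdk-5.

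Among the partners of the transcription kinases the cyclin C gene cic-1 had the highest peak. It had 293 in replicate 1 and 320 in replicate 2, and 595 after pooling, against 90.7 in the pooled list at its kinase gene cdk-8. Of the other subunit genes of the Mediator kinase module, dpy-22 had an IDR summit with a pooled signal of 61.0, but no summit of replicate 1. The gene let-19 had no IDR summit and a weak one of 9.43 in replicate 2 only. For cdk-7, the assembly factor gene mnat-1 had 68.1 and the cyclin H gene cyh-1 had 10.4 in the pooled list, below the IDR minimum. The cyclin T genes cit-1.1 and cit-1.2, partners of cdk-9, share 1 summit of 75.3 between them. The cyclin L gene cyl-1 had 151, beside the 129 of cdk-11.2. It was higher than cdk-11.2 in replicate 1 (77.9 against 64.5) and in replicate 2 (78.1 against 65.3). The cyclin K gene ccnk-1 had 94.4, beside the 87.9 of cdk-12. The remaining activator genes, cya-2 and cyy-1, had no IDR summit.

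**Figure D4:**
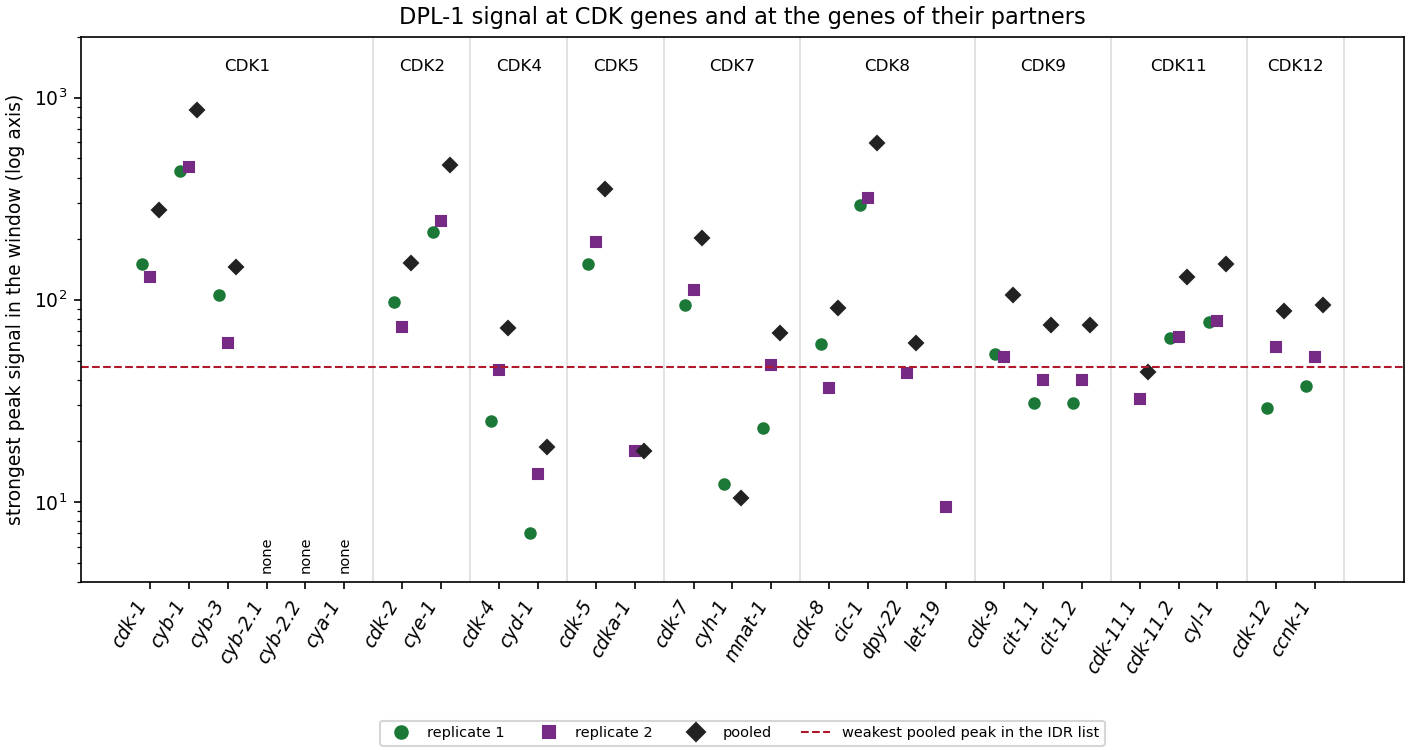
Signal of the strongest summit in the window of each CDK gene and of genes of its known partners, on a log axis, for replicate 1, replicate 2 and the pooled replicates; columns are grouped by kinase, the dashed line is the weakest pooled peak of the IDR list (46.4) and "none" marks genes with no summit in any list. The highest points are the cyclin genes cyb-1 (871), cic-1 (595) and cye-1 (464), above every CDK gene plotted.

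Of 11 genes for kinases, phosphatases, inhibitors and adaptors that act on CDKs, 4 had an IDR summit, set beside 16.4% of all genes. The strongest by far was wee-1.3, which encodes the Myt1-type kinase that holds CDK1 inactive, with 696 in replicate 1 and 757 in replicate 2, and 1429 after pooling, rank 38. The phosphatase gene cdc-14 followed with 146 and a second summit of 79.0, then the CDK inhibitor gene cki-2 with 62.9 and the chaperone gene cdc-37 with 50.4. None of the 4 cdc-25 phosphatase genes, nor cki-1, wee-1.1 or cks-1, had one. Of the related kinase genes pct-1, cdkl-1 and cdkr-3, cdkr-3 had an IDR summit of 119, shared with the arginine methyltransferase gene prmt-1.

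Over all 33 partner and regulator genes 15 had an IDR summit, set beside 16.4% of all genes. No summit in any list was found at 8 of the 33, set beside 8211 of all 19973 protein-coding genes. The median signal of the 15 was 119, against 141 for all genes with an IDR summit. The summit was nearest to the gene's own start at 9 of these 15, a share not taken for all genes. The others, cyb-1, cyb-3, cye-1, mnat-1, ccnk-1 and cit-1.2, had another protein-coding start closer to it. The nearer start for cit-1.2 was that of cit-1.1.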

How the data were processed

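The deposited narrowPeak files on ce11 were used, whose derivation is given per the deposited file listings: a relaxed list of each replicate against a control alignment, a relaxed list of both, and an IDR-thresholded list. The peak signal is the authors' value in the deposited lists, and so is the -log10 q. No source used here names the aligner or the peak caller. The summit offset, also deposited by the authors, gave 1-based summits. The ce10 lists were not used.

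Peaks were matched to genes of Ensembl release 115 on WBcel235, which is ce11 under another name, and 0 peaks ended beyond a chromosome. Replicate summits were matched to an IDR or pooled summit within 100 bp. A summit was called shared by genes when it lay in the window of each. A trans-spliced or operon transcript can begin upstream of its annotated start. The code was Python 3.11.15 with numpy 2.4.6, and the assignment of summits was tested on simulated data. No difference was tested, because the members were chosen by the measure described and there is 1 group. With no read counts, no interval for depth can be given.

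The members and lists were chosen with earlier results of these data known. Named are all members, genes sharing their summits, partner genes with an IDR summit, and the 2 genes most like the strongest member. Other partner genes, genes beyond the end of cdk-5 and the shared run of the cdk-11 pair were named after their values were seen. Alternatives were other windows, starts, overlaps and peak numbers, and each replicate left out.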

Additional observations from a re-analysis of the deposited data

How the results depend on the processing

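The count of 9 CDK genes with an IDR summit stayed between 7 and 9 with windows that began 500 bp, 2000 bp or, with 100 bp downstream, 200 bp before a start, with the outermost or the nearest start only, and by overlap of at least 1 bp. In the narrowest of these windows cdk-4 and cdk-12 were lost. Among the strongest 1000 IDR peaks it fell to 3 (cdk-1, cdk-5 and cdk-7), as fewer peaks were used. With a replicate left out the count was 9 to 10, and the tenth gene was cdk-11.1, from replicate 2 alone. The count in the pooled list was 9 to 10 with a replicate left out, an alternative chosen after seeing the data. Replicate summits lay within 50 bp of each other at 7 of 9 genes, cdk-4 and cdk-12 being the exceptions. The share of all IDR peaks at that distance was not taken, so how usual this is remains unknown.

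The 15 partner and regulator genes fell to 6 in the narrowest window, to 9 with the nearest start only and to 4 among the strongest 1000 peaks. They numbered 12 to 15 with a replicate left out, and without replicate 2 the genes mnat-1, cdc-37 and dpy-22 were lost. The median signal of 129 became 152 in the narrowest window and 278 among the strongest 1000 peaks, as weaker genes dropped out. With a replicate left out, signals are those of 1 relaxed list. The median was then 61.9 over 10 genes, with cdk-11.1, without replicate 1, and 64.5 over 9 genes without replicate 2. These 2 medians are thus not over the same genes. CHR words were found at 2 of the 9 genes within 50 bp of the summit, where the window is shorter, against 27.2% of all IDR windows. Within 200 bp they were found at 6 of the 9, against 74.3%. With a replicate left out, also chosen after seeing the data, the motif counts for E2F, CHR and GAGAG over the same 9 genes, without cdk-11.1, were again 1, 4 and 6.

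No paired analysis was possible because the labels give 1 group. The depth is unknown and limits what weak summits can show.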
